A study of Mus musculus with 8 samples.

Results

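Mouse endometrial cancers (EC) of the TPK and TPMCa models were compared through their bulk RNA libraries, 2 TPK and 2 TPMCa, chosen by the model named in the sample labels and making up 4 of the 8 libraries of the series. Both models started from uterus organoids of CAG-Cas9-EGFP mice, in which the CAG promoter drives Cas9 broadly, and the edited organoids were transplanted orthotopically into nude mice, which lack a thymus. TPK and TPMCa share a lentiviral sgRNA against Trp53. TPMCa, called TPMPik3ca in the labels, also carried retroviral cDNAs for Myc and for Pik3ca E545K, neither of which was introduced in TPK. The labels describe tumor organoids, whereas the study's methods describe tumor tissue taken after transplantation. The comparison asks how tumors of one origin, with Trp53 targeted in both but with other driver combinations, differ in their transcriptomes. The study counts 2 mice per model for this tissue, and the labels hold 2 libraries per model. The p-values measure the spread between libraries of the same model, estimated over all 8 libraries of the series and so also from models outside this comparison.

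The endometrium is lined by a simple epithelium that folds into glands, over a stroma of mesenchymal cells. Epithelial cells are held together by E-cadherin junctions, tight junctions and desmosomes, while EC can also contain squamous areas, in which cells stratify and make keratins and cornified envelope proteins as skin does. Mesenchymal transcription factors of the Zeb, Snail and Twist families repress epithelial junction genes, and tumors that lose epithelial features often gain theirs.

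The shared sgRNA is shown with its PAM in capitals because both models carry it. It matched the plus strand of Trp53 on chromosome 11 of GRCm38 (mm10), from 69587439 to 69587457, in exon 4 and in the coding sequence of the main protein-coding transcript.
Trp53 sgRNA: gtgaagccctccgagtgtcAGG

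Expression is given in CPM, the counts of a gene scaled to a fixed library total with TMM factors. Total counts were 19110458 and 15748396 in TPK and 16380374 and 16675076 in TPMCa. The floor of detection was set at 3 counts per library, which is 0.167 to 0.198 CPM here, and this limit covers counting error only. Across genes, log2 CPM correlated at 0.935 between the TPK libraries, at 0.929 between the TPMCa libraries, and at between 0.727 and 0.773 across the models. Genes over 4-fold apart numbered 972 between the TPK libraries and 1293 between the TPMCa libraries, of 15875 tested. Some marker lists of other cell types stood apart in 1 library. The summed level of 6 skeletal muscle genes was 13.9 and 898 CPM in TPK and 41.04 and 44.1 CPM in TPMCa. Neutrophil genes summed to 862 and 956 CPM in TPK and 3405 and 440.1 CPM in TPMCa, and lymphocyte and NK cell genes to 15.8 and 4.61 CPM in TPK and 21.03 and 192 CPM in TPMCa.

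The engineered genes were read first as a check of the labels. Trp53 was at 38.3 and 36.9 CPM in TPK and 78.5 and 70.2 CPM in TPMCa, so both TPK libraries lay below both TPMCa libraries, a difference that missed the threshold (log2 fold change -0.98 ± 0.30 (SE), adjusted p = 0.101 from edgeR). Myc was at 154 and 92.8 CPM in TPK and 3075 and 324 CPM in TPMCa. Both TPMCa libraries lay above TPK for Myc, but they lay far apart from each other, and the difference was not called (log2 fold change -3.79 ± 1.05 (SE), adjusted p = 0.0804 from edgeR). Pik3ca was at 66.6 and 80.1 CPM in TPK and 89.9 and 83.3 CPM in TPMCa, with no call (adjusted p = 0.546 from edgeR), so its level does not show the added Pik3ca cDNA in the libraries labelled TPMPik3ca. Pik3r1 was at 159 and 156 CPM in TPK and 78.1 and 80.9 CPM in TPMCa (adjusted p = 0.185 from edgeR). Whether reads of an introduced cDNA are counted under the mouse symbol was not tested, and the TPMCa name rests here on the labels. The study itself shows sequence reads with the introduced Pik3ca mutation in a TPMCa tumor. It also reports strong staining of the PIK3CA protein in TPMCa tumors.

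More genes were called higher than lower in TPK. The edgeR test called 957 genes below an adjusted p of 0.05, or 6.03% of those tested. Of these, 730 (4.6%) were higher and 227 (1.43%) lower in TPK. The median log2 fold change of all 15875 genes was 0.01. Among genes with a log2 fold change of 8 to 16 in size, 176 were called higher and 10 lower, whereas below 2 in size the calls were 74 and 83. Of the higher calls, 70 had 0 counts in both TPMCa libraries, and 6 of the lower calls had 0 counts in both TPK libraries. With the limits the study used, which are an unadjusted p below 0.05 together with a log2 fold change larger than 1 in size, 3661 genes (23.1%) were DEGs, 2146 higher (13.5%) and 1515 lower (9.54%). The 2 libraries of a model did not overlap those of the other model in 9981 genes (62.9%), with TPK above in 33.2% and below in 29.7% of genes. The number of calls depended on every library: it was 207 without TPK replicate 1, 88 without TPK replicate 2, 43 without TPMCa replicate 1 and 121 without TPMCa replicate 2. The split also depended on the test, since the Wald test of DESeq2 called 3501 genes, 56.8% of them higher in TPK, against 76.3% for edgeR. Among the 15875 genes tested by edgeR, DESeq2 called 1984 higher and 1505 lower, which is the scale for its counts in the lists below. No called gene changed sign under any alternative run, but all of these reuse the same libraries.

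**Figure D1:**
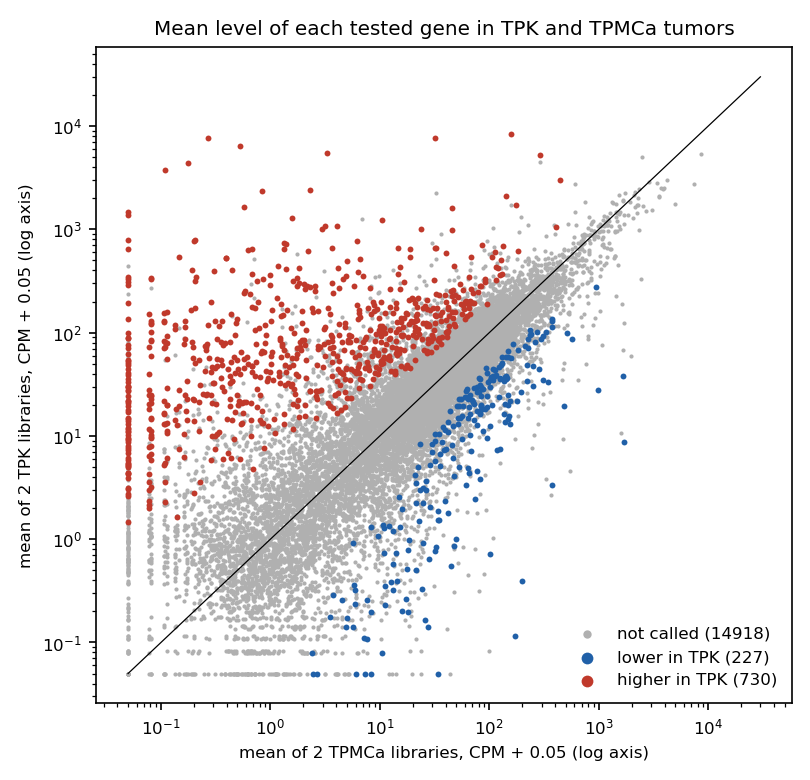
Mean CPM of the 2 TPK libraries (vertical, log axis) against the mean of the 2 TPMCa libraries (horizontal, log axis) for each tested gene, with 0.05 CPM added so that genes at 0 can be drawn. Red points are the 730 genes called higher and blue points the 227 called lower in TPK by edgeR, and the red points at the left edge are genes at 0 counts in TPMCa.

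Genes of epithelial adhesion and tight junctions moved together. In all 19 tested members both TPK libraries exceeded both TPMCa libraries, and 15 were called, all higher, with a median log2 fold change of 6.71 against 0.01 over all genes. Among all tested genes, TPK lay above in 33.2% and 4.6% were called higher, shares that apply to each list below. This list and those below were chosen with earlier results of these data known, so the shares give scale only. Cdh1, which codes for E-cadherin (chromosome 8, 106603351 to 106670246, GRCm38), was at 768 and 792 CPM in TPK and 6.97 and 5.34 CPM in TPMCa (log2 fold change 6.98 ± 0.40 (SE), adjusted p = 0.00215 from edgeR). Its replicates lay close together in both models, and the models were far apart. Epcam, an adhesion molecule of simple epithelia, was at 322 and 527 CPM in TPK and 5.003 and 3.12 CPM in TPMCa (log2 fold change 6.71 ± 0.53 (SE), adjusted p = 0.00509 from edgeR). The tight junction gene Cldn4 was at 318 and 313 CPM in TPK and 2.03 and 1.11 CPM in TPMCa (log2 fold change 7.65 ± 0.48 (SE), adjusted p = 0.00327 from edgeR). Rab25, a small GTPase of epithelial membrane recycling, was at 168 and 187 CPM in TPK and 0.697 and 0.557 CPM in TPMCa (log2 fold change 8.13 ± 0.44 (SE), adjusted p = 0.00208 from edgeR). For these members both TPMCa libraries stayed under 8 CPM. Esrp1, a splicing regulator of epithelial cells, was at 167 and 230.1 CPM in TPK and 1.20 and 0.223 CPM in TPMCa (log2 fold change 8.13 ± 0.81 (SE), adjusted p = 0.0104 from edgeR). The polarity gene Crb3 was at 41.4 and 42.98 CPM in TPK and 0.127 and 0.278 CPM in TPMCa (log2 fold change 7.64 ± 0.74 (SE), adjusted p = 0.00713 from edgeR). The members that missed the threshold were Cldn8, Marveld2, F11r and Esrp2, with adjusted p between 0.0553 and 0.0883 from edgeR. With 1 library left out at a time, 5 to 9 members were called. By histology the study describes well-differentiated glands in TPMCa tumors, whereas these epithelial markers were low in both TPMCa libraries. In bulk samples fewer cells of a type and less RNA per cell cannot be told apart.

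Windows upstream of these genes were searched for CACCTG on both strands, the E-box form that Zeb and Snail factors bind. Of these factors Zeb1 and Zeb2 were called lower in TPK and Snai2 higher, with values given further on. RefSeq promoters of GRCm38.p6 were at hand for 13 members, and the 250 bases before the start held a match in 9 of them, Epcam, Cldn4, Cldn7, Ocln, Tjp3, F11r, Crb3, Rab25 and Ap1m2. Over all 27025 genes with a window the share was 19.4%. Of the 11 members with a window that were called higher, 8 held a match. A match describes letters only, not a bound site. A pair of these windows is shown, with matches in capitals, as examples with 1 match on each strand.
Epcam, chr17:87635729-87635978, plus strand: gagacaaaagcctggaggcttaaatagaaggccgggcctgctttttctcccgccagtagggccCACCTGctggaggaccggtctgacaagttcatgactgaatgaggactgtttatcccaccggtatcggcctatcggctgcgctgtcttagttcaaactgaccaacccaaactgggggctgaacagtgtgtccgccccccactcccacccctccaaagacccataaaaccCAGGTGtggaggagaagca
Rab25, chr3:88548280-88548529, minus strand: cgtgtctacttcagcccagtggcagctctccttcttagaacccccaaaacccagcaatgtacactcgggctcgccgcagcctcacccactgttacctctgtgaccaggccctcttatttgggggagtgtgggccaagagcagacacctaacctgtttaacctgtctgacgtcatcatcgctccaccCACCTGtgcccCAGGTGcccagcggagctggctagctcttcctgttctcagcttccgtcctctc

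Desmosomes, the junctions that anchor keratin filaments, followed the same direction. Of 13 tested members 7 were called, all higher in TPK, against 4.6% of all genes called higher. Both TPK libraries lay above TPMCa in 12, against 33.2% of all genes. The median was 8.30 on the log2 scale, and 6.79 with genes at 0 in TPMCa set to their lower bound. Dsp, which codes for desmoplakin, was at 1458 and 1103 CPM in TPK and 2.60 and 0.445 CPM in TPMCa (log2 fold change 9.72 ± 1.19 (SE), adjusted p = 0.0117 from edgeR). Jup, which codes for plakoglobin and also serves adherens junctions, was at 1044 and 919 CPM in TPK and 35.2 and 56.6 CPM in TPMCa (log2 fold change 4.42 ± 0.45 (SE), adjusted p = 0.00759 from edgeR), so it kept a clear level in TPMCa. Dsg3, a desmosomal cadherin of stratified epithelia, was at 287 and 378 CPM in TPK and 0.0633 and 0 CPM in TPMCa, a ratio of 11108 (95% counting interval 1994 to 438750) that covers counting error only (adjusted p = 0.0103 from edgeR). The plakophilin Pkp1 was at 706 and 325 CPM in TPK and 1.20 and 0.111 CPM in TPMCa and missed the threshold (adjusted p = 0.0566 from edgeR). With 1 library left out, 0 to 5 members were called.

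In the hemidesmosomes, which tie basal cells to the basement membrane, 4 of 10 tested members were called, all higher in TPK, and the median log2 fold change was 1.94. With any 1 library left out, 1 member was called. Itgb4, the integrin chain particular to hemidesmosomes, was at 327 and 239 CPM in TPK and 6.71 and 4.79 CPM in TPMCa (log2 fold change 5.62 ± 0.39 (SE), adjusted p = 0.00329 from edgeR). Col17a1, a transmembrane collagen of this junction, was at 390.2 and 442 CPM in TPK and 0.253 and 2.45 CPM in TPMCa (log2 fold change 8.24 ± 1.28 (SE), adjusted p = 0.0206 from edgeR). The laminin-332 chain Lamb3 was at 103 and 87.5 CPM in TPK and 0.507 and 1.22 CPM in TPMCa (log2 fold change 6.76 ± 0.88 (SE), adjusted p = 0.0136 from edgeR). Both models expressed the linkers Plec and Dst, which were not called, and Dst was at 145 and 145 CPM in TPK and 239 and 219 CPM in TPMCa, with TPMCa above TPK.

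**Figure D2:**
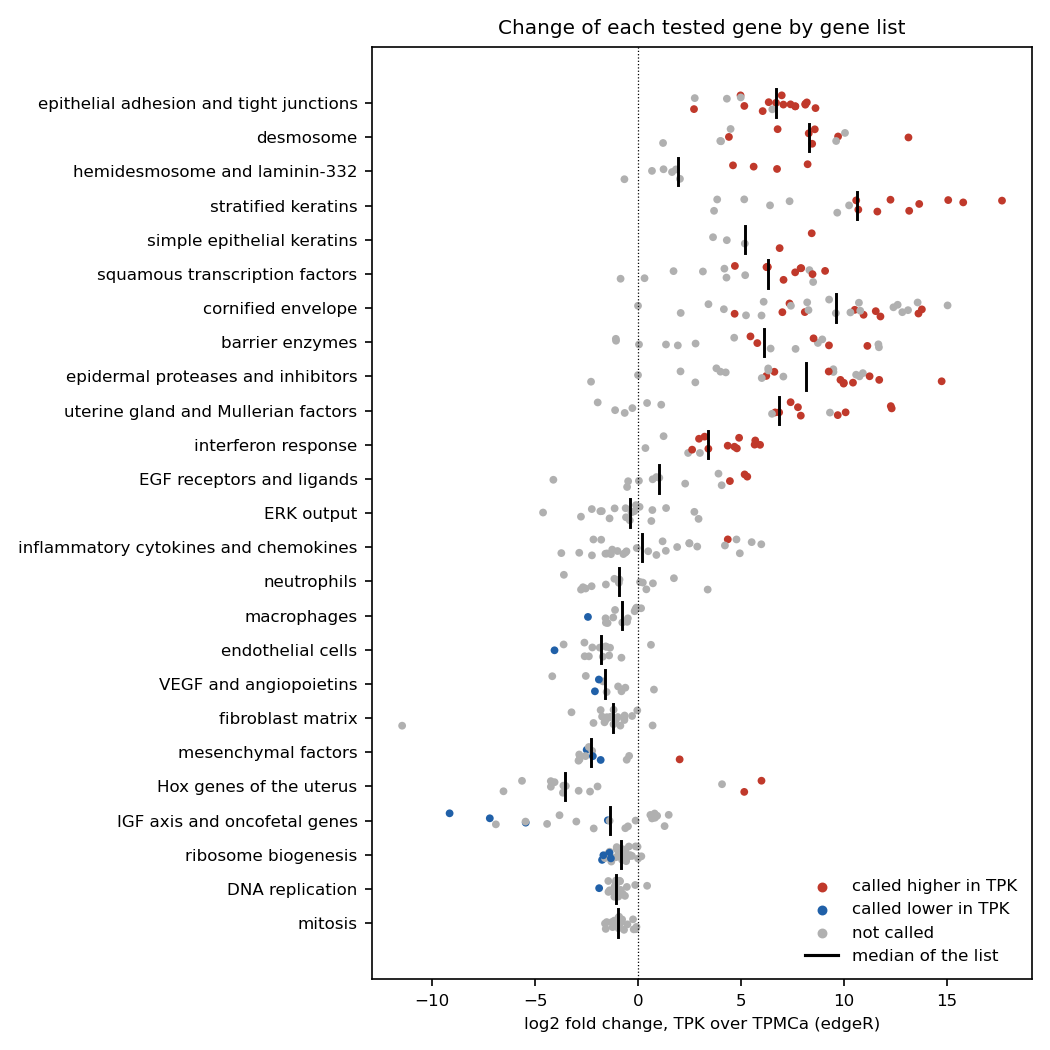
Log2 fold change of TPK over TPMCa from edgeR for each tested gene of 25 gene lists, 1 point per gene, with the median of each list as a black bar. Red and blue points were called higher and lower in TPK. The epithelial, keratin, squamous, gland and interferon lists lie mostly to the right, while calls to the left are scattered over the mesenchymal, vascular, oncofetal and growth genes.

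Stratified keratins showed the greatest differences in level. Of 18 members 16 were tested. In all 16 the TPK libraries exceeded the TPMCa libraries, against 33.2% of all genes. Members with 0 counts in TPMCa could not lie below it, so this count gives scale only. Of the 16 tested members 9 were called, all higher, against 4.6% of all genes, and the median log2 fold change was 10.66. The list summed to 34302 and 22542 CPM in TPK and 16.8 and 9.13 CPM in TPMCa. Krt5, the keratin of basal cells (chromosome 15, 101707070 to 101712898, GRCm38), was at 7358 and 5506 CPM in TPK and 0.0633 and 0.890 CPM in TPMCa (log2 fold change 13.67 ± 1.64 (SE), adjusted p = 0.0160 from edgeR), and its basal partner Krt14 was at 6517 and 4358 CPM in TPK and 5.57 and 0.946 CPM in TPMCa (log2 fold change 10.71 ± 1.29 (SE), adjusted p = 0.0114 from edgeR). Krt13, a keratin of mucosal squamous epithelium (chromosome 11, 100117327 to 100121566), was at 8128 and 7063 CPM in TPK and 0.443 and 0 CPM in TPMCa (log2 fold change 15.08 ± 2.41 (SE), adjusted p = 0.0287 from edgeR). All of these were abundant in both TPK libraries and under 6 CPM in TPMCa. Krt15, another basal keratin, was at 725 and 814 CPM in TPK and 0.190 and 0.111 CPM in TPMCa and had close replicates in TPK (adjusted p = 0.00172 from edgeR). Per kb of exon, the mean TPK level was 4171 CPM for Krt13 and 2928 CPM for Krt5. Krt6a, induced in wounded and hyperproliferative epidermis, was at 5374 and 2207 CPM in TPK and 0.0633 and 0.0557 CPM in TPMCa, a ratio of 65883 (95% counting interval 18238 to 544016). Krt6b, its near copy, was at 2045 and 885 CPM in TPK with 0 counts in TPMCa, at least 8208-fold higher against 3 counts in each TPMCa library (adjusted p = 0.0347 from edgeR). Reads of such near copies can be split between them, so the level of each is less certain than that of the group. The epidermal keratins were less abundant in TPK and not called, with Krt1 at 11.7 and 5.27 CPM in TPK and 0 and 0 CPM in TPMCa (adjusted p = 0.191 from edgeR) and Krt10 at 334 and 108 CPM in TPK and 3.17 and 2.003 CPM in TPMCa (adjusted p = 0.0978 from edgeR). Krt33b, a hair keratin named for its large change, was at 169 and 102 CPM in TPK and 0 in TPMCa (adjusted p = 0.00597 from edgeR). With 1 library left out, 2 to 4 stratified keratins were called.

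Keratins of simple epithelia, typical of the gland, were also higher in TPK. Krt7 was at 826 and 1199 CPM in TPK and 4.50 and 1.34 CPM in TPMCa (log2 fold change 8.44 ± 1.09 (SE), adjusted p = 0.0135 from edgeR). Krt19 was at 1095 and 1353 CPM in TPK and 16.1 and 4.67 CPM in TPMCa (log2 fold change 6.88 ± 1.24 (SE), adjusted p = 0.0294 from edgeR). Krt8 was at 94.3 and 515 CPM in TPK and 26.1 and 4.51 CPM in TPMCa and its partner Krt18 at 130.2 and 576 CPM in TPK and 14.7 and 4.67 CPM in TPMCa, with TPK replicate 2 well above replicate 1 in both and neither called (adjusted p = 0.0837 and 0.0540 from edgeR). Their 5 tested members included 2 calls, both higher.

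Of 19 transcription factors of squamous epithelium 10 were called, all higher in TPK, against 4.6% of all genes called higher. Both TPK libraries lay above TPMCa in 17, against 33.2% of all genes, and the median log2 fold change was 6.30. Grhl2, which keeps epithelial junction genes expressed, was at 103 and 154 CPM in TPK and 1.58 and 0.334 CPM in TPMCa (log2 fold change 7.07 ± 0.80 (SE), adjusted p = 0.01000 from edgeR). Grhl3, a related factor of barrier formation, was at 92.01 and 63.2 CPM in TPK and 0.317 and 0.111 CPM in TPMCa (log2 fold change 8.48 ± 1.05 (SE), adjusted p = 0.0122 from edgeR). In both of these the TPMCa libraries lay under 3 CPM. Sox2, a squamous and progenitor factor, was at 93.5 and 59.9 CPM in TPK and 0.633 and 0 CPM in TPMCa (adjusted p = 0.0297 from edgeR), Pitx1 at 501 and 344 CPM in TPK and 3.17 and 0.390 CPM in TPMCa (log2 fold change 7.90 ± 0.99 (SE), adjusted p = 0.0126 from edgeR), and the ETS factor Ehf at 550.1 and 899.9 CPM in TPK and 2.28 and 0.390 CPM in TPMCa (log2 fold change 9.09 ± 1.77 (SE), adjusted p = 0.0367 from edgeR). Trp63, the master factor of stratified epithelia (chromosome 16, 25683763 to 25892102, GRCm38), was at 231 and 201 CPM in TPK and 0.190 and 1.11 CPM in TPMCa and did not pass in edgeR (adjusted p = 0.0702), although the groups lay far apart and the Wald test of DESeq2 gave an adjusted p of 1.78e-05. Klf4, a factor of terminal differentiation that other cells also express, was at 241 and 138 CPM in TPK and 484 and 197 CPM in TPMCa, with overlapping groups. No squamous factor was called without TPK replicate 2, against 3 without TPK replicate 1 and 5 without either TPMCa library.

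Cornified envelope, barrier and protease genes were also called higher in TPK. Of 43 envelope genes found 31 were tested. Of the 31 tested 10 were called, all higher in TPK, with a median of 9.61 on the log2 scale, and 6.11 with genes at 0 in TPMCa at their bound. Without TPK replicate 1 the median fell to 3.49. Sprr1a, a small proline-rich precursor of the envelope, was at 3179.7 and 1479 CPM in TPK and 1.39 and 0.167 CPM in TPMCa (log2 fold change 11.55 ± 1.64 (SE), adjusted p = 0.0169 from edgeR). Sprr2f, a member of a family of near copies, was at 91.8 and 105 CPM in TPK and 0 in TPMCa, at least 552-fold higher (adjusted p = 0.00824 from edgeR). Evpl, which codes for envoplakin, was at 307 and 219.7 CPM in TPK and 1.71 and 2.34 CPM in TPMCa (log2 fold change 7.02 ± 1.19 (SE), adjusted p = 0.0251 from edgeR). A few envelope genes, picked after their values were seen, differed between the TPK libraries. Cnfn, which codes for cornifelin, was at 521 and 18.7 CPM in TPK and 0.0633 and 0 CPM in TPMCa, Sprr3 at 432 and 36.1 CPM in TPK and 0 and 0 CPM in TPMCa, and Lce3c, another envelope gene, at 74.1 and 1.45 CPM in TPK and 0 and 0 CPM in TPMCa. In each of these TPK replicate 1 was high and replicate 2 much lower, and none was called (adjusted p = 0.0540, 0.137 and 0.121 from edgeR). Of 18 tested barrier enzymes 5 were called higher, among them Cers3, a ceramide synthase, at 38.98 and 44.5 CPM in TPK and 1.33 and 0.557 CPM in TPMCa (log2 fold change 5.47 ± 0.87 (SE), adjusted p = 0.0223 from edgeR). Sult2b1, a cholesterol sulfotransferase, was at 59.3 and 16.7 CPM in TPK and 0.570 and 0.779 CPM in TPMCa (log2 fold change 5.80 ± 0.88 (SE), adjusted p = 0.0201 from edgeR). Alox12b, a lipoxygenase of the skin barrier, was at 44.6 and 0.857 CPM in TPK and 0 and 0 CPM in TPMCa and again stood high in TPK replicate 1 alone. Among 26 proteases and inhibitors of stratified epithelia 10 were called, all higher in TPK. St14, which codes for the membrane protease matriptase, was at 343 and 640.4 CPM in TPK and 3.80 and 6.12 CPM in TPMCa (log2 fold change 6.63 ± 0.75 (SE), adjusted p = 0.01000 from edgeR), and its inhibitors, which are not in this list and were named for their small p, were Spint1, at 290.3 and 427 CPM in TPK and 1.20 and 0.668 CPM in TPMCa, and Spint2, at 652 and 681 CPM in TPK and 15.2 and 14.1 CPM in TPMCa (adjusted p = 0.00329 and 0.00172 from edgeR). Tmprss11b, a mucosal protease, was at 184 and 199 CPM in TPK and 0 in TPMCa, at least 1075-fold higher (adjusted p = 0.0201 from edgeR). With 1 library left out, 1 to 3 envelope genes, 0 to 2 barrier enzymes and 0 to 5 proteases and inhibitors were called.

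**Figure D3:**
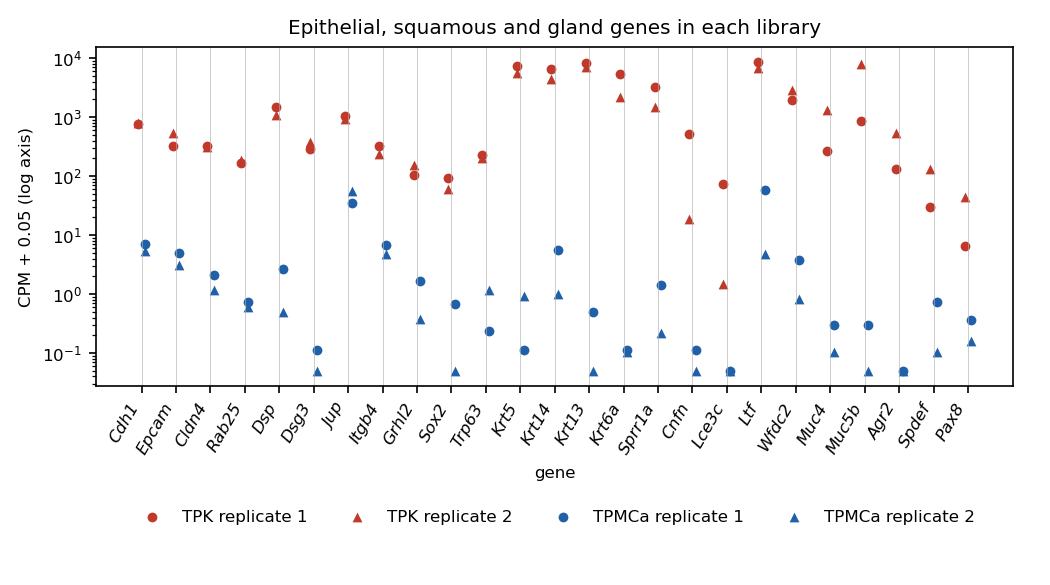
CPM plus 0.05 (log axis) of 25 epithelial, squamous and gland genes in each of the 4 libraries, with TPK in red, TPMCa in blue, circles for replicate 1 and triangles for replicate 2. The TPK libraries lie above the TPMCa libraries for every gene drawn, the envelope genes Cnfn and Lce3c are higher in TPK replicate 1, and the gland genes Muc4, Muc5b, Agr2, Spdef and Pax8 are higher in TPK replicate 2.

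Alongside the squamous genes, TPK was higher in genes of the uterine gland and its secretions. Of 17 tested members 9 were called, all higher, with a median log2 fold change of 6.86. Ltf, which codes for lactoferrin, an estrogen-induced secretory protein of the mouse uterus (chromosome 9, 111019271 to 111042767, GRCm38), was at 8456 and 6827 CPM in TPK and 58.8 and 4.67 CPM in TPMCa (log2 fold change 7.91 ± 1.65 (SE), adjusted p = 0.0426 from edgeR). Wfdc2, a secreted protease inhibitor used as a marker of gynecologic tumors, was at 1924 and 2917 CPM in TPK and 3.67 and 0.779 CPM in TPMCa (log2 fold change 10.09 ± 1.09 (SE), adjusted p = 0.00916 from edgeR). The membrane mucins Muc1, at 202 and 406 CPM in TPK and 2.22 and 1.34 CPM in TPMCa, and Muc4, at 267 and 1299 CPM in TPK and 0.253 and 0.0557 CPM in TPMCa, were called (adjusted p = 0.00574 and 0.00903 from edgeR). Among the transcription factors, Pax8, a marker of the Mullerian duct lineage, was at 6.57 and 44.04 CPM in TPK and 0.317 and 0.111 CPM in TPMCa (log2 fold change 6.86 ± 1.32 (SE), adjusted p = 0.0354 from edgeR). Foxa2, needed for gland formation, was at 7.83 and 41.8 CPM in TPK and 0.253 and 0.223 CPM in TPMCa (log2 fold change 6.66 ± 1.07 (SE), adjusted p = 0.0292 from edgeR). Pax8 and Foxa2 were lower in TPK replicate 1 than in replicate 2. Genes of mucous secretion stood among the largest changes. Muc5b, a gel-forming mucin (chromosome 7, 141839070 to 141873084), was at 857 and 8004 CPM in TPK and 0.253 and 0 CPM in TPMCa, Agr2, a chaperone for mucins, at 134 and 533 CPM in TPK and 0 and 0 CPM in TPMCa, and Clca1, secreted by goblet cells, at 413 and 867 CPM in TPK and 0 and 0 CPM in TPMCa (adjusted p = 0.0135, 0.0182 and 0.0104 from edgeR). All 3 were higher in TPK replicate 2, and Agr2 and Clca1 were at least 1867-fold and 3587-fold higher than the floor of TPMCa. Spdef, a factor of mucus-secreting cells, was at 29.6 and 134 CPM in TPK and 0.697 and 0.0557 CPM in TPMCa (log2 fold change 7.77 ± 1.32 (SE), adjusted p = 0.0251 from edgeR). The receptors for estrogen and progesterone, which glands use to respond to hormones, showed no call. Esr1 was at 81.7 and 149 CPM in TPK and 18.2 and 56.2 CPM in TPMCa (adjusted p = 0.136 from edgeR), and Pgr at 1.94 and 3.69 CPM in TPK and 1.52 and 51.6 CPM in TPMCa, high in TPMCa replicate 2 only. With 1 library left out, 1 to 6 gland genes were called.

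Genes induced by interferon made up the clearest group outside the epithelial lists. Interferons act through a complex of STAT proteins and Irf9, which binds the interferon-stimulated response element (ISRE), and the induced proteins restrict viruses and raise the response further. Of 15 tested members 11 were called, all higher in TPK, against 4.6% of all genes called higher. Both TPK libraries lay above TPMCa in 14, against 33.2% of all genes, with a median log2 fold change of 3.42. The list summed to 4059.7 and 4053 CPM in TPK and 214 and 371 CPM in TPMCa. Isg15, a ubiquitin-like protein, was at 405 and 341 CPM in TPK and 11.1 and 17.9 CPM in TPMCa (log2 fold change 4.69 ± 0.49 (SE), adjusted p = 0.00859 from edgeR). Ifit1, which binds foreign RNA, was at 277 and 428 CPM in TPK and 6.21 and 7.62 CPM in TPMCa (log2 fold change 5.67 ± 0.59 (SE), adjusted p = 0.00824 from edgeR). Ifit3, its partner, was at 296 and 475 CPM in TPK and 2.79 and 9.79 CPM in TPMCa (log2 fold change 5.93 ± 0.95 (SE), adjusted p = 0.0223 from edgeR). The antiviral GTPase gene Mx1 was at 136 and 211 CPM in TPK and 1.65 and 5.01 CPM in TPMCa (log2 fold change 5.70 ± 0.997 (SE), adjusted p = 0.0270 from edgeR). In these genes the 2 TPK libraries lay within 2-fold of each other, and both TPMCa libraries lay far below them. Irf7, a factor that amplifies the response, was at 662 and 658 CPM in TPK and 20.3 and 43.97 CPM in TPMCa (log2 fold change 4.36 ± 0.92 (SE), adjusted p = 0.0435 from edgeR). Usp18, which restrains it, was at 152 and 221 CPM in TPK and 2.47 and 9.85 CPM in TPMCa (log2 fold change 4.91 ± 0.96 (SE), adjusted p = 0.0371 from edgeR). The chemokines Cxcl9 and Cxcl10 were not called, with Cxcl10 at 56.01 and 40.1 CPM in TPK and 29.6 and 10.96 CPM in TPMCa (adjusted p = 0.176 from edgeR). No interferon gene was called without TPMCa replicate 1, 1 was without TPMCa replicate 2, 2 were without TPK replicate 1 and 3 without TPK replicate 2.

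The interferon promoters were searched for the core of the ISRE, GAAA followed after any 2 bases by another GAAA, on both strands. Of 11 members with a RefSeq window 7 held it within 250 bases before the start, Isg15, Ifit1, Ifit3, Rsad2, Cxcl10, Gbp2 and Bst2, and of the 8 called members with a window 6 did. The share over all 27025 genes was 3.5%. Ifit2, Oasl1, Irf7 and Cxcl9 had windows without this exact core, and Oas2, Mx1 and Usp18 were among those with no window. The windows of 4 called genes are shown because they hold more than 1 core, with matches in capitals, and in Isg15 and Bst2 neighboring matches overlap. In Isg15 the matches span from 78 to 57 bases before the start.
Isg15, chr4:156200819-156201068, minus strand: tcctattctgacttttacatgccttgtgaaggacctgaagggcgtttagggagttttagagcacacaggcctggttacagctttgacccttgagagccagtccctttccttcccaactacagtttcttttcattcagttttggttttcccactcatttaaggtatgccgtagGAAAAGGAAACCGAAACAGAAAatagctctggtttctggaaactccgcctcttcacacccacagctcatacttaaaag
Ifit1, chr19:34640639-34640888, plus strand: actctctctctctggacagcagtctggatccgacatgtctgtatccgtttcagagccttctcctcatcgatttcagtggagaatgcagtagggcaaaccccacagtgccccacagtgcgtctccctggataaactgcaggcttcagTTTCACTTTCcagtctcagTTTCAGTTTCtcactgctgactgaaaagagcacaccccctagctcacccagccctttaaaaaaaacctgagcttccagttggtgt
Ifit3, chr19:34583279-34583528, plus strand: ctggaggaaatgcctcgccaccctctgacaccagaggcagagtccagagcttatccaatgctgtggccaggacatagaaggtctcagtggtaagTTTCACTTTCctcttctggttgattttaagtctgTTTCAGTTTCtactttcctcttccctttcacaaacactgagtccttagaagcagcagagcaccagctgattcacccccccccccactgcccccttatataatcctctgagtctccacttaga
Bst2, chr8:71537473-71537722, minus strand: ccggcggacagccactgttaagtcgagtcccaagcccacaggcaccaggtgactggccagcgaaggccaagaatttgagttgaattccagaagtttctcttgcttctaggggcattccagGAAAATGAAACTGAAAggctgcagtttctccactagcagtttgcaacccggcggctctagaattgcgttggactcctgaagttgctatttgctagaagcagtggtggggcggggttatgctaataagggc

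**Figure D4:**
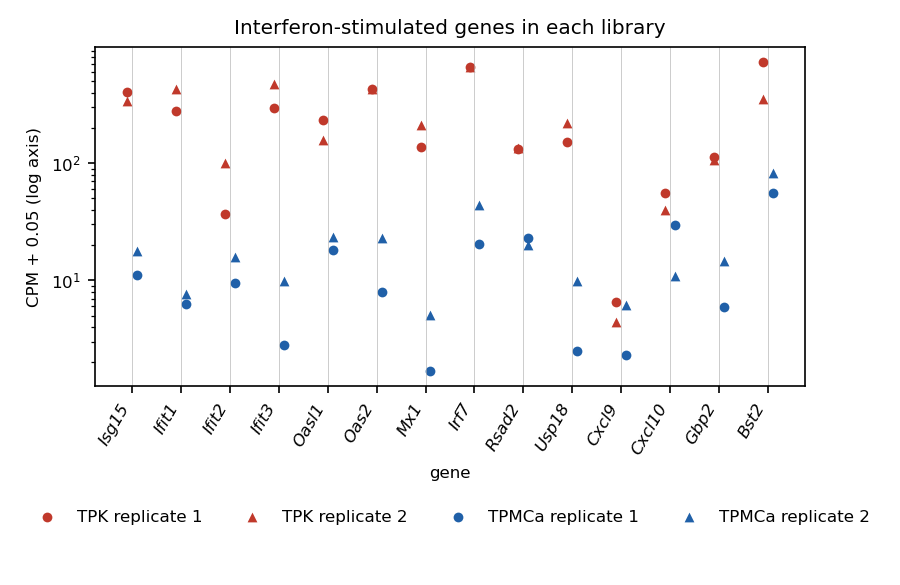
CPM plus 0.05 (log axis) of 14 interferon-stimulated genes in each library, with TPK in red, TPMCa in blue, circles for replicate 1 and triangles for replicate 2. The models overlap only in Cxcl9, and the TPK replicates lie close together in most genes.

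Immune cell markers gave few calls beside the interferon genes, and with 6.03% of all genes called, lists of this size would hold few at that share. None of 15 neutrophil genes and 10 lymphocyte and NK cell genes was called, against 1 and 3 of them, in that order, by DESeq2. Of 13 macrophage genes 1 was called by either tool, Mertk, a receptor for dying cells, at 29.6 and 41.7 CPM in TPMCa and 6.34 and 6.86 CPM in TPK (log2 fold change -2.43 ± 0.52 (SE), adjusted p = 0.0462 from edgeR). MHC class II genes overlapped in all 7 members, and Cd74 was at 411 and 175 CPM in TPK and 74.03 and 562 CPM in TPMCa. Among 28 inflammatory cytokines and chemokines DESeq2 called 6 higher and edgeR 1, Il33, an alarmin stored in epithelial nuclei, at 582 and 745 CPM in TPK and 37.9 and 26.6 CPM in TPMCa (log2 fold change 4.36 ± 0.95 (SE), adjusted p = 0.0473 from edgeR). The neutrophil attractants went apart, with Cxcl5 at 318 and 493 CPM in TPK and 17.4 and 8.85 CPM in TPMCa and Cxcl2 at 22.8 and 46.9 CPM in TPK and 649.9 and 273 CPM in TPMCa, neither called (adjusted p = 0.0812 and 0.262 from edgeR). The part of immune cells in the interferon result was not tested.

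Receptors and ligands of the EGF family contained 3 calls among 13 tested genes, all higher in TPK, against 4.6% of all genes called higher. Their median log2 fold change was 1.03 and rose to 1.91 without TPMCa replicate 1. Leaving out 1 library left 1 to 2 called, and DESeq2 called 5 higher and 1 lower. Erbb3, a receptor that signals through its partners, was at 54.4 and 89.6 CPM in TPK and 1.27 and 2.34 CPM in TPMCa (log2 fold change 5.31 ± 0.46 (SE), adjusted p = 0.00574 from edgeR). The ligand Tgfa was at 45.6 and 37.5 CPM in TPK and 1.39 and 0.890 CPM in TPMCa (log2 fold change 5.18 ± 0.52 (SE), adjusted p = 0.00759 from edgeR). The ligand Btc was at 5.77 and 12.9 CPM in TPK and 0.443 and 0.390 CPM in TPMCa (log2 fold change 4.47 ± 0.90 (SE), adjusted p = 0.0399 from edgeR). Egfr itself was at 82.5 and 109 CPM in TPK and 69.5 and 33.5 CPM in TPMCa, with TPK above in both libraries but no call (adjusted p = 0.243 from edgeR). Erbb2 was at 141 and 166 CPM in TPK and 14.1 and 6.34 CPM in TPMCa (adjusted p = 0.0633 from edgeR). Genes that report ERK activity downstream of such receptors had no call among 19 in edgeR and 5 in DESeq2, 2 higher and 3 lower, with a median of -0.40 that ranged from -0.89 to -0.23 with 1 library left out. Dusp6, a phosphatase induced by ERK, was at 104 and 64.8 CPM in TPK and 85.2 and 74.5 CPM in TPMCa, with overlapping groups. Egr1, an immediate early gene, was at 2221 and 1106 CPM in TPMCa and 87.4 and 48.4 CPM in TPK, and TPMCa was above TPK in both libraries without a call (adjusted p = 0.127 from edgeR). Spry4, a feedback inhibitor, was at 32.7 and 23.9 CPM in TPMCa and 6.86 and 1.38 CPM in TPK (adjusted p = 0.109 from edgeR).

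The PI3K pathway, the target of the Pik3ca cDNA that the TPMCa labels name, had no call among 20 subunits and effectors in edgeR and 2 in DESeq2, with a median log2 fold change of -0.14 that ranged from -0.32 to -0.08 with 1 library left out. The insulin receptor substrates went opposite ways, with Irs1 at 47.9 and 153 CPM in TPK and 17.4 and 10.4 CPM in TPMCa and Irs2 at 8.29 and 4.75 CPM in TPK and 82.6 and 77.3 CPM in TPMCa. Neither passed in edgeR (adjusted p = 0.0583 and 0.0977), although the groups did not overlap and both passed in DESeq2 (adjusted p = 7.62e-04 and 0.00282). Foxo1 was at 36.6 and 32.2 CPM in TPK and 54.1 and 38.5 CPM in TPMCa.

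Genes higher in TPMCa formed fewer groups. Of 12 mesenchymal factors edgeR called 3 lower in TPK, Zeb1, Zeb2 and Tcf4, and 1 higher, Snai2, and DESeq2 called 7 lower and 1 higher. Of the 12, 10 lay below TPMCa in both TPK libraries, against 29.7% of all genes, with a median log2 fold change of -2.31. Zeb1 was at 46.8 and 44.2 CPM in TPMCa and 7.77 and 8.37 CPM in TPK (log2 fold change -2.49 ± 0.30 (SE), adjusted p = 0.0114 from edgeR), with close replicates in both models. Zeb2, its relative, was at 117 and 134 CPM in TPMCa and 44.5 and 26.7 CPM in TPK (log2 fold change -1.81 ± 0.34 (SE), adjusted p = 0.0344 from edgeR). Tcf4, an E-protein, was at 258 and 184 CPM in TPMCa and 53.7 and 42.7 CPM in TPK (log2 fold change -2.19 ± 0.46 (SE), adjusted p = 0.0426 from edgeR). Snai2, which basal epithelial cells also express, was at 19.1 and 19.2 CPM in TPK and 5.19 and 4.23 CPM in TPMCa (log2 fold change 2.02 ± 0.42 (SE), adjusted p = 0.0435 from edgeR). Vim, which codes for vimentin, was at 2592 and 2287 CPM in TPMCa and 451 and 206 CPM in TPK, apart between the models but not called (adjusted p = 0.103 from edgeR). None of these factors was called with any 1 of the 4 libraries left out. Fibroblast genes were expressed in all libraries, and 22 matrix genes, none of them called by edgeR and 4 called lower by DESeq2, summed to 16246 and 5326 CPM in TPK and 18835 and 26380.3 CPM in TPMCa. Col1a1, the main collagen, was at 3261 and 6738 CPM in TPMCa and 2766 and 736 CPM in TPK. The part of stromal cells in the mesenchymal factors was not tested.

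Vessel genes had few calls. Flt1, a VEGF receptor of endothelial cells, was at 149 and 99.5 CPM in TPMCa and 8.17 and 6.72 CPM in TPK (log2 fold change -4.06 ± 0.84 (SE), adjusted p = 0.0415 from edgeR). It was the only edgeR call of 14 endothelial genes, against 6.03% of all genes called and 1.43% called lower, and DESeq2 called 6 lower. In 12 of the 14 both TPK libraries lay below TPMCa, against 29.7% of all genes. The endothelial list summed to 418 and 130.2 CPM in TPK and 931 and 1113 CPM in TPMCa. Of 10 VEGF and angiopoietin genes 2 were called lower in TPK by edgeR and 6 by DESeq2. The edgeR calls were the VEGF co-receptor Nrp2 at 178 and 106 CPM in TPMCa and 39.3 and 36.7 CPM in TPK (log2 fold change -1.90 ± 0.37 (SE), adjusted p = 0.0367 from edgeR) and the lymphatic receptor Flt4 at 20.3 and 39.2 CPM in TPMCa and 8.06 and 5.87 CPM in TPK (log2 fold change -2.09 ± 0.45 (SE), adjusted p = 0.0470 from edgeR). Vegfa, the main ligand, was at 652 and 298 CPM in TPMCa and 193 and 137 CPM in TPK (adjusted p = 0.0819 from edgeR). These 3 calls were lost with any 1 library left out.

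Hox genes set position along the reproductive tract. Of 14 tested genes Hoxb6 and Hoxb7 were called by edgeR, both higher in TPK, and DESeq2 called 3 higher and 5 lower. Without TPK replicate 2 or TPMCa replicate 1 no Hox gene was called, and without either other library 1 was. The median of the list was -3.57, but -0.55 without TPMCa replicate 1 and -5.77 without TPK replicate 1. Hoxb6 was at 111 and 135 CPM in TPK and 1.20 and 2.62 CPM in TPMCa (log2 fold change 6.001 ± 0.63 (SE), adjusted p = 0.00856 from edgeR). Hoxb7 was at 57.8 and 65.7 CPM in TPK and 0.633 and 2.78 CPM in TPMCa (log2 fold change 5.16 ± 1.03 (SE), adjusted p = 0.0389 from edgeR). Hoxb9 lay above TPMCa in both TPK libraries as well, at 15.9 and 22.7 CPM in TPK and 1.27 and 1.002 CPM in TPMCa (adjusted p = 0.0718 from edgeR). The 4 HoxA genes had negative log2 fold changes without a call. Hoxa9 was at 156 and 29.996 CPM in TPMCa and 2.51 and 1.19 CPM in TPK and Hoxa10, needed for implantation, at 105 and 28.8 CPM in TPMCa and 6.74 and 1.25 CPM in TPK (adjusted p = 0.114 and 0.174 from edgeR), with TPMCa replicate 1 highest in both. Hand2, a stromal target of progesterone, was at 12.4 and 91.6 CPM in TPMCa and 1.09 and 0 CPM in TPK, highest in TPMCa replicate 2 (adjusted p = 0.119 from edgeR).

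**Figure D5:**
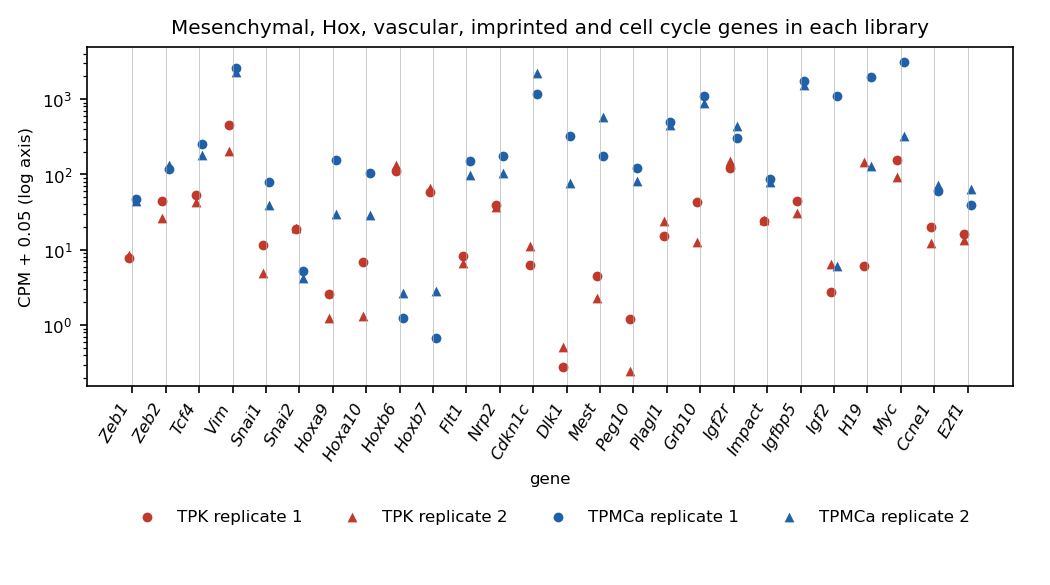
CPM plus 0.05 (log axis) of 26 mesenchymal, Hox, vascular, imprinted and cell cycle genes in each library, with TPK in red, TPMCa in blue, circles for replicate 1 and triangles for replicate 2. TPMCa lies above TPK for most genes drawn, Snai2, Hoxb6 and Hoxb7 go the other way, and Igf2 and H19 are high in TPMCa replicate 1 only.

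The 15 genes named for a large fall in TPK included Cdkn1c, Dlk1, Grb10, Mest, Peg10 and Plagl1, which are imprinted. Imprinted genes are expressed from 1 parental copy, and many of them control fetal growth. Cdkn1c, a CDK inhibitor expressed from the maternal copy (chromosome 7, 143458339 to 143461050, GRCm38), was at 1175 and 2247 CPM in TPMCa and 6.29 and 11.1 CPM in TPK (log2 fold change -7.62 ± 0.65 (SE), adjusted p = 0.00574 from edgeR). The lower TPMCa library lay 105.5-fold above the higher TPK library, and the call was kept under all 13 alternatives. Dlk1, a paternally expressed inhibitor of differentiation, was at 319.6 and 76.7 CPM in TPMCa and 0.229 and 0.461 CPM in TPK (log2 fold change -9.16 ± 1.54 (SE), adjusted p = 0.0251 from edgeR). Mest was at 177 and 572 CPM in TPMCa and 4.40 and 2.24 CPM in TPK (log2 fold change -6.81 ± 1.07 (SE), adjusted p = 0.0217 from edgeR). Plagl1, a zinc finger factor of the imprinted network, was at 505 and 452 CPM in TPMCa and 15.1 and 23.7 CPM in TPK (log2 fold change -4.62 ± 0.61 (SE), adjusted p = 0.0137 from edgeR), with close replicates in TPMCa. Grb10, an adaptor that dampens insulin and IGF receptor signaling, was at 1103 and 884 CPM in TPMCa and 43.2 and 12.8 CPM in TPK (log2 fold change -5.15 ± 0.84 (SE), adjusted p = 0.0233 from edgeR). A list of 32 imprinted genes was then written, after these values had been seen, and is described without a test. Of its 29 tested genes 8 were called lower and 0 higher by edgeR, against 1.43% of all genes called lower. These calls include Cdkn1c, Dlk1, Grb10, Mest, Peg10 and Plagl1, whose falls were known when the list was written. The count can therefore not be weighed against that share. The others were Impact, at 87.97 and 79.97 CPM in TPMCa and 24.4 and 24.7 CPM in TPK, and Igf2r. Igf2r was at 307 and 441 CPM in TPMCa and 122 and 149 CPM in TPK. Among 16 genes expressed from the paternal copy 13 lay below TPMCa in both TPK libraries and the median log2 fold change was -4.03. Among 13 from the maternal copy 5 lay below and 3 above, with a median of -0.45, and the difference between both kinds was not tested. Over all genes 29.7% lay below, but both kinds hold genes whose falls were known beforehand, so this share gives scale only. Igf2, the paternally expressed growth factor, was at 1089.8 and 6.12 CPM in TPMCa and 2.74 and 6.39 CPM in TPK, and H19, from the other copy of that locus, at 1999 and 131 CPM in TPMCa and 6.06 and 145 CPM in TPK. Both were high in TPMCa replicate 1 alone and overlapped between the models. Igfbp5, an IGF binding protein that is not imprinted, was at 1744 and 1558 CPM in TPMCa and 44.7 and 30.5 CPM in TPK (log2 fold change -5.46 ± 1.02 (SE), adjusted p = 0.0330 from edgeR). Of the 4 calls among the genes of the IGF axis, Igf2r, Igfbp5, Dlk1 and Peg10, none was left with any 1 library left out.

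Many growth and cell cycle genes lay lower in TPK by small amounts, with few calls. Of 30 ribosome biogenesis genes, many of them targets of Myc, 26 lay below TPMCa in both TPK libraries, against 29.7% of all genes. By edgeR 4 were called lower and by DESeq2 15, and the median log2 fold change was -0.83. Srm, a polyamine synthesis enzyme, was at 364 and 288 CPM in TPMCa and 111 and 92.5 CPM in TPK (log2 fold change -1.68 ± 0.25 (SE), adjusted p = 0.0188 from edgeR). Cad, which starts pyrimidine synthesis, was at 239 and 239.6 CPM in TPMCa and 102 and 90.4 CPM in TPK (log2 fold change -1.32 ± 0.23 (SE), adjusted p = 0.0267 from edgeR). Mrto4 and Rrp9 were the other calls, and none of the 4 was called with any 1 library left out. The nucleolar gene Ncl was at 1723 and 1083 CPM in TPMCa and 655 and 458 CPM in TPK (adjusted p = 0.0886 from edgeR). The ribosome biogenesis list summed to 8575 and 6242 CPM in TPMCa and 4100 and 3211 CPM in TPK. A link between the level of Myc and these genes was not tested. Of 23 DNA replication genes 21 lay below TPMCa and DESeq2 called 11 lower. The only edgeR call was Cdt1, a licensing factor, at 142 and 136 CPM in TPMCa and 52.3 and 22.7 CPM in TPK (log2 fold change -1.89 ± 0.41 (SE), adjusted p = 0.0479 from edgeR). Of 24 mitosis genes none was called by edgeR, against 10 lower by DESeq2, and 20 lay below. Mki67, a marker of cycling cells, was at 281 and 268 CPM in TPMCa and 186 and 136 CPM in TPK (adjusted p = 0.117 from edgeR). In the G1 phase, Ccne1, at 60.04 and 73.2 CPM in TPMCa and 19.9 and 12.3 CPM in TPK (log2 fold change -2.05 ± 0.41 (SE), adjusted p = 0.0400 from edgeR), and E2f1, at 39.5 and 63.4 CPM in TPMCa and 16.2 and 13.4 CPM in TPK (log2 fold change -1.80 ± 0.33 (SE), adjusted p = 0.0297 from edgeR), were called lower with Cdkn1c, and the CDK inhibitor Cdkn2b was called higher, at 116 and 93.6 CPM in TPK and 10.4 and 5.73 CPM in TPMCa (log2 fold change 3.70 ± 0.61 (SE), adjusted p = 0.0235 from edgeR). Targets of p53, the factor edited in both models, had 2 calls of 17, both higher in TPK, against 4.6% of all genes called higher. Phlda3, which inhibits Akt, was at 343 and 188 CPM in TPK and 10.3 and 14.2 CPM in TPMCa (log2 fold change 4.44 ± 0.91 (SE), adjusted p = 0.0415 from edgeR). Aen was at 80.1 and 84.97 CPM in TPK and 25.8 and 33.3 CPM in TPMCa (log2 fold change 1.48 ± 0.24 (SE), adjusted p = 0.0228 from edgeR), while Cdkn1a was at 104 and 114 CPM in TPK and 249 and 121 CPM in TPMCa, with no call (adjusted p = 0.351 from edgeR).

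Among the remaining lists, the Wnt list had Wnt7b, a ligand of epithelial cells, called at 67.6 and 152 CPM in TPK and 1.20 and 1.78 CPM in TPMCa (log2 fold change 6.19 ± 0.97 (SE), adjusted p = 0.0217 from edgeR), Lgr6 called higher and the ligand enhancer Rspo3 called lower, at 0.400 and 0.527 CPM in TPK and 5.45 and 29.6 CPM in TPMCa (log2 fold change -5.22 ± 1.04 (SE), adjusted p = 0.0390 from edgeR). Axin2, a readout of Wnt signaling, was at 4.63 and 5.01 CPM in TPK and 1.84 and 5.95 CPM in TPMCa, with overlapping groups. In the Notch list no gene of 13 was called by edgeR and 4 by DESeq2, 3 higher and 1 lower. Bmp7 was the only edgeR call of 15 TGF-beta and BMP genes, at 8.97 and 14.4 CPM in TPK and 1.58 and 1.56 CPM in TPMCa (log2 fold change 2.89 ± 0.57 (SE), adjusted p = 0.0383 from edgeR). Insig1, which restrains sterol synthesis, was the only edgeR call of 25 cholesterol and fatty acid genes, at 308 and 131 CPM in TPMCa and 31.4 and 35.9 CPM in TPK (log2 fold change -2.71 ± 0.46 (SE), adjusted p = 0.0251 from edgeR). Gata4 was the only edgeR call of 14 gonadal supporting cell genes, at 5.32 and 11.3 CPM in TPMCa and 1.09 and 1.45 CPM in TPK (log2 fold change -2.71 ± 0.48 (SE), adjusted p = 0.0367 from edgeR). No gene was called by edgeR among 16 glycolysis and hypoxia genes, 17 matrix protease genes, 13 steroid synthesis genes, 10 genes of the Myc network and 8 steroid receptor and response genes, against 3, 2, 2, 2 and 2 by DESeq2. With 1984 higher and 1505 lower of all 15875 genes called by DESeq2, lists of this size would hold a few such calls at that share.

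Genes named for the smallest p, outside the lists, had close replicates. Among those higher in TPK, Grb7, an adaptor of receptor tyrosine kinases, was at 117 and 117 CPM in TPK and 0.190 and 0.390 CPM in TPMCa (log2 fold change 8.61 ± 0.41 (SE), adjusted p = 0.00172 from edgeR). Cblc, an epithelial member of the Cbl ubiquitin ligases, was at 81.7 and 92.5 CPM in TPK and 0.380 and 0.167 CPM in TPMCa (log2 fold change 8.30 ± 0.58 (SE), adjusted p = 0.00329 from edgeR). Nupr1, induced by cell stress, was at 961 and 1047 CPM in TPK and 27.7 and 19.7 CPM in TPMCa and kept a clear level in TPMCa (log2 fold change 5.41 ± 0.36 (SE), adjusted p = 0.00329 from edgeR). Plch2, a phospholipase, was at 200.3 and 175 CPM in TPK and 1.58 and 0.835 CPM in TPMCa, and Wfdc18, a secreted inhibitor related to Wfdc2, at 133 and 129 CPM in TPK and 0.190 and 0.334 CPM in TPMCa (adjusted p = 0.00215 and 0.00329 from edgeR). Among those lower in TPK, Sulf2, which trims heparan sulfate, was at 255 and 251 CPM in TPMCa and 54.8 and 40.3 CPM in TPK (log2 fold change -2.41 ± 0.26 (SE), adjusted p = 0.00932 from edgeR). Cul7, a ubiquitin ligase scaffold, was at 127 and 159 CPM in TPMCa and 37.3 and 33.4 CPM in TPK (log2 fold change -2.01 ± 0.23 (SE), adjusted p = 0.0104 from edgeR). The kinase gene Prkd3 was at 125 and 127 CPM in TPMCa and 34.5 and 37.5 CPM in TPK (log2 fold change -1.81 ± 0.24 (SE), adjusted p = 0.0137 from edgeR). Igdcc4, a membrane protein of the immunoglobulin superfamily, was at 53.6 and 52.8 CPM in TPMCa and 4.57 and 5.34 CPM in TPK (log2 fold change -3.42 ± 0.32 (SE), adjusted p = 0.00673 from edgeR). Of the 10 lower genes named in this way, none was called without TPK replicate 2 or without TPMCa replicate 1.

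Among genes named for a large change, several membrane proteins were high in TPK and had 0 counts in TPMCa. Aqp4, a water channel, was at 472 and 1089 CPM in TPK, at least 4372-fold higher (adjusted p = 0.0129 from edgeR). Gabrp, a GABA receptor subunit found in the reproductive tract, was at 116 and 576 CPM, at least 1938-fold higher, and Psca, a surface protein anchored by lipid, at 2148 and 619 CPM, at least 7749.9-fold higher (adjusted p = 0.0272 and 0.0467 from edgeR). TPK replicate 2 was the higher one for Aqp4 and Gabrp and replicate 1 for Psca. In the other direction, Slc6a15, an amino acid transporter, was at 44.4 and 23.5 CPM in TPMCa and 0 in TPK, at least 184-fold lower in TPK (adjusted p = 0.0114 from edgeR). Tet1, which oxidizes methylated cytosine, was at 61.6 and 27.4 CPM in TPMCa and 0.743 and 0.264 CPM in TPK (log2 fold change -6.43 ± 1.13 (SE), adjusted p = 0.0273 from edgeR). Stc1, a secreted glycoprotein hormone, was at 66.7 and 81.1 CPM in TPMCa and 3.49 and 1.32 CPM in TPK (log2 fold change -4.93 ± 0.66 (SE), adjusted p = 0.0145 from edgeR). Spock2, a matrix proteoglycan, was at 70.4 and 24.2 CPM in TPMCa and 1.09 and 0.527 CPM in TPK (log2 fold change -5.85 ± 0.90 (SE), adjusted p = 0.0206 from edgeR).

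Of 166 called genes among the lists and named genes, 21 kept their call and direction under all 13 alternatives, 20 of them higher in TPK. Cdh1, Epcam, Cldn4, Rab25, Itgb4, Krt15, Krt33b, Sprr2a3, Wfdc2 and Erbb3 were in this group and span junctions, keratins, the envelope, the gland and the EGF family. Cdkn1c was the only lower gene in it, and the only lower call left without TPK replicate 2 or without TPMCa replicate 1. The other 10 had been named for the smallest p, which favors them.

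The other models give a scale for these levels. Cdh1 was at 787 and 698 CPM in TPM and 0.271 and 0.500 CPM in TPMR1, and Krt5 at 5720.4 and 1281 CPM and 0 and 0 CPM, so TPM was on the side of TPK and TPMR1 on the side of TPMCa. Isg15 was at 182 and 105 CPM in TPM and 19.6 and 10.8 CPM in TPMR1, placing TPM between. The mucous gene Agr2 was at 5.96 and 2.69 CPM in TPM and 0 and 0 CPM in TPMR1, and Clca1 at 5.54 and 23.2 CPM and 0 and 0.0556 CPM, far below TPK in both. Krt33b was at 0.602 and 0.629 CPM in TPM and 0 and 0 CPM in TPMR1. Cdkn1c was at 9.03 and 18.1 CPM in TPM and 106 and 94.2 CPM in TPMR1, below both TPMCa libraries. Plagl1 was at 27.2 and 18.5 CPM in TPM and 54.1 and 17.95 CPM in TPMR1. The other imprinted genes named for a large fall were split in TPMR1. Dlk1 and Grb10 reached or neared the TPMCa level in TPMR1 replicate 2, and in replicate 1 each lay below both TPMCa libraries. Dlk1 was at 6.56 and 13.96 CPM in TPM and 63.2 and 555 CPM in TPMR1, and Grb10 at 94.8 and 107 CPM and 254 and 873 CPM. Mest, at 9.18 and 47.6 CPM in TPMR1, and Peg10, at 2.67 and 18.6 CPM in TPMR1, stayed well below both TPMCa libraries. These values are given as a description, since the differences from TPM and TPMR1 were not tested.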

How the data were processed

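RNA libraries of 4 mouse EC models, 2 per model, were sequenced as paired ends by the authors, aligned to mm10 with STAR and deposited as raw counts per gene symbol. The counter, its annotation and its use of strand are not given in the sources used here. The authors also deposited a signal table of counts divided by DESeq2 size factors, which was used only to check the counts. No per-sample column was left unmapped, and the column headings TPMS were read as TPM. Of 24419 genes, 25 had symbols turned into dates by a spreadsheet and 15875 passed the filterByExpr function of edgeR.

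Counts were normalized with TMM and tested by the quasi-likelihood test of edgeR (version 4.0.16, R 4.3.3) over all 8 libraries, with the contrast of TPK minus TPMCa. P-values were adjusted by Benjamini-Hochberg over all tested genes, and a gene was called at an adjusted p under 0.05. Each SE was derived from the test, as the size of the log2 fold change divided by the square root of its F statistic. It is therefore not a directly fitted standard error. The study's own test was that of DESeq2 (version 1.42.0), run here as an alternative. With 2 libraries per model no permutation test of single genes can reach 0.05, so none was run. The script was tested on simulated data. A fold against 0 counts in both libraries is a lower bound at 3 counts per library, and a ratio against 1 to 3 counts has an exact 95% counting interval.

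The named genes were Trp53, Myc, Pik3ca and Pik3r1, any member of 45 gene lists (738 of 747 listed genes found), the 15 largest changes per direction among called genes with no overlap and a mean log2 CPM of at least 5 in the higher model, and the 10 smallest p per direction outside the lists. The members and lists were chosen with earlier results of these data known, and the imprinted list after its values had been seen here. Promoters came from RefSeq (GRCm38.p6) and gene positions from the GRCm38 annotation. Results on some engineered and listed genes are not reported here.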

Additional observations from a re-analysis of the deposited data

How the results depend on the processing

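The direction of every called gene was kept under all 13 alternatives, while the number of calls moved widely. All alternatives reuse the same libraries, so a kept direction is not independent support. Against 957 calls (730 higher, 227 lower), edgeR on the TPK and TPMCa libraries alone called 1716 (1146 higher, 570 lower). With the TPMR1 libraries left out of the fit, an alternative chosen after seeing the data, it called 2446 (1550 and 896). The Wald test of DESeq2 called 3501 (1987 and 1514), and on the TPK and TPMCa libraries alone, also chosen after seeing the data, 3701 (2068 and 1633). The DESeq2 calls included all 957. The common dispersion was 0.269 over all 8 libraries and 0.188 over the 4 compared. With 1 library left out, which leaves a lone library assumed to vary like the other models, 43 to 207 genes were called, 42 to 191 higher and 1 to 16 lower. At the thresholds of the study the range was 2323 to 3398 DEGs, 1513 to 2040 higher and 760 to 1358 lower, against 3661, 2146 and 1515. Other size factors, library size alone and both other filters kept all counts within 1.5 times. Library size alone moved the median log2 fold change of all genes to -0.10. The share of calls that were higher was 76.3% and ranged from 55.9% to 98.9%.

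The replicate numbers are shared between models only as numbers. Deviations of TPK replicate 1 and TPMCa replicate 1 from their model means correlated at -0.06 across genes, and the fit with a replicate block called 623 genes (522 higher, 101 lower). Of 585 list medians under the alternatives, 70 moved by more than the spread between replicates and 25 changed sign. Sequencing depth sets a floor of 3 counts, so levels under about 0.2 CPM cannot be ordered. The spread of each gene rests on 4 residual degrees of freedom over the 8 libraries, and edgeR moderates it across genes.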
